A study of Homo sapiens with 6 samples.

Results

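The genes described here are FAXDC2 and 5 relatives of the fatty acid hydroxylase superfamily, MSMO1, SC5D, CH25H, FA2H and AGMO, which are 6 of the 62252 genes to which transcripts were summed. FAXDC2 was chosen by its change in these same libraries, and its gene and transcript values are therefore a description with no test. The other 5 were taken because they belong to the family. K562 is a human leukemia line with erythroid features. The cells used here descend from 1 clone with a landing site for cassette exchange at AAVS1, into which Flag-PCBP1 under a tet-inducible promoter was placed, and the recombined cells were kept as a puromycin-selected polyclonal line. Libraries of polyA RNA were made without doxycycline (−Dox, 3 libraries) and with it (+Dox, 3 libraries, PCBP1 OE). All 6 carry the cassette, so +Dox cells differ from −Dox cells both by the drug and by Flag-PCBP1, and the dose and time of Dox for these libraries are not given in the sources used here. The sources do not say that the replicates were separate cultures, and p-values then measure only the spread between these libraries. Depth, as the sum of estimated counts in a library, was 84177316, 80104627 and 74766040 in −Dox and 70905656, 82263502 and 82449808 in +Dox.

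Enzymes of this superfamily sit in the endoplasmic reticulum membrane, hold iron between clustered histidines, and use oxygen and electrons from cytochrome b5 or a related donor to hydroxylate or desaturate a lipid. MSMO1 oxidises the methyl groups at C4 of sterols and SC5D adds a double bond at C5, both late steps of cholesterol synthesis. CH25H makes the oxysterol 25-hydroxycholesterol, FA2H puts a hydroxyl group on the fatty acids of sphingolipids, and AGMO cleaves ether lipids with tetrahydrobiopterin as its cofactor. FAXDC2 is less studied and has been linked to megakaryocyte maturation.

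PCBP1, the gene overexpressed, was measured first as a check of the labels. Its level, in counts scaled to library size with TMM factors (CPM), was 247.5, 269.5 and 266.9 in −Dox and 1030, 936.4 and 1037 in +Dox. Every +Dox library lay above every −Dox library, as the labels have it, and transcripts of the cassette and of the native gene were not separated here. The line was also checked for its own markers. All 8 genes of a K562 list, among them GATA1, TAL1, KLF1, HBG1, HBG2, HBE1 and TFRC, were expressed, and their summed level was 8443.4, 9552.1 and 8597.4 CPM in −Dox and 8930.5, 8217.4 and 8625.6 CPM in +Dox. Markers of B, T, natural killer, liver, connective tissue, epithelial and neutrophil cells summed to between 45.4 and 50.9 CPM in each library, nearly all of it EPCAM (45.8 ± 0.458 CPM in −Dox, SD, n = 3), and none of the 5 of these 8 that could be tested passed an adjusted p of 0.05 by edgeR or DESeq2, with 1, EPCAM, at an unadjusted p under 0.05.

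FAXDC2 had the largest log2 ratio of the 4 members with enough counts to fit. It was at 23.4, 25.5 and 22.9 CPM in −Dox and at 100.8, 100.7 and 95.8 CPM in +Dox, and the groups do not overlap. The means were 23.9 ± 1.37 and 99.1 ± 2.86 CPM (SD, n = 3 per group), a 4.14-fold difference, and the fitted log2 ratio of +Dox over −Dox was 2.05 (SE 0.057). Among the 9289 genes with a mean of at least 10 CPM, none had a larger increase, and 49 of all 21045 genes tested did. For comparison, 155 of the 21045 genes (0.737%) passed the limits used by the study for a DEG in the upward direction (adjusted p under 0.05 and a log2 fold change above 1), and in 17.4% all +Dox libraries lay above all −Dox libraries. Since FAXDC2 was selected on this contrast, nothing is read from these shares. In bulk RNA, a change in the number of cells that express a gene and a change in its RNA per cell cannot be told apart.

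**Figure D1:**
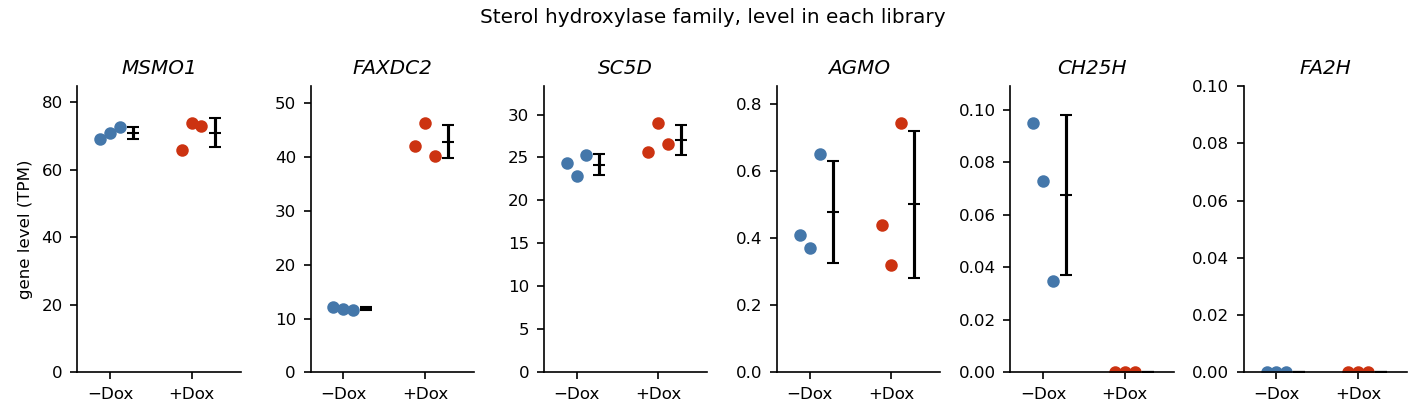
Level of each member in TPM (vertical axes from 0, a separate scale per gene) in the 3 −Dox and 3 +Dox libraries. Points are libraries and the black bar is the mean with its SD. FAXDC2 is the member whose groups lie far apart, CH25H falls to 0 counts, and FA2H is at 0 in all 6 libraries.

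The 4 members with a mean count above 10 entered the fit over all genes. Of the 3 other than FAXDC2, 1 passed an adjusted p of 0.05, SC5D, against 8.16% of all genes tested that were higher and 7.68% that were lower. MSMO1 (ENSG00000052802.13, chr4:165327667-165343164 of GRCh38, plus strand) was at 128.5, 130.1 and 132.7 CPM in −Dox and at 125.5, 130.9 and 141.2 CPM in +Dox. The groups overlap. Its log2 ratio was 0.02 (SE 0.0512, adjusted p = 0.825 by edgeR, n = 3 per group), and over 14 other settings of the fit it stayed between −0.02 and 0.06.

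SC5D (ENSG00000109929.10, chr11:121292681-121313410, plus strand) was at 53.4, 50.7 and 51.7 CPM in −Dox and at 59.2, 61.9 and 61.4 CPM in +Dox. Each +Dox library lay above each −Dox library, by a modest margin. The mean rose 1.17-fold, with a log2 fold change of 0.23 (SE 0.0497, adjusted p = 0.00759 by edgeR). The call was lost where transcript length entered the fit (log2 ratio 0.20 and adjusted p = 0.0748 by edgeR with a length offset), and on TPM the means were 24.2 ± 1.25 and 27.0 ± 1.74.

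CH25H (ENSG00000138135.7, chr10:89205629-89207317, minus strand, 1 annotated transcript) held 12, 9 and 4 counts in −Dox and 0, 0 and 0 in +Dox. All of its counts came from −Dox libraries, and its mean count of 4.17 kept it out of the fit. Its −Dox level was 0.104 ± 0.0453 CPM, and its −Dox counts stood 8.21-fold above a floor of 3 counts over the +Dox group (0.0127 CPM). This ratio takes the −Dox counts as they stand, without their counting error. An exact two-sided permutation test of the 6 values gave p = 0.1, the smallest that 3 against 3 libraries allow, so it could not pass 0.05. A fit of all 35586 genes with any count holds CH25H only through its −Dox counts, and no p from it is given.

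AGMO (ENSG00000187546.14, chr7:15200317-15562015, minus strand) held 39, 27 and 26 counts in −Dox and 27, 26 and 51 in +Dox. The groups overlap, and the highest value belongs to +Dox replicate 3. The log2 fold change was 0.19 (SE 0.398, adjusted p = 0.817 by edgeR) and −0.17 without that library, so no direction can be given at this depth. FA2H (ENSG00000103089.9, chr16:74712955-74774831, minus strand) had 0 counts in all 6 libraries, which allows between 0.0357 and 0.0424 CPM in a library (3 counts). These limits and intervals cover counting error only.

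The order of the members was compared on TPM, which is scaled for transcript length. In −Dox, MSMO1 led (70.8 ± 1.7 TPM), followed by SC5D (24.2 ± 1.25), FAXDC2 (11.9 ± 0.304), AGMO (0.478 ± 0.152) and CH25H (0.0676 ± 0.0303), and the values of neighbours in this order do not overlap. Of AGMO TPM in −Dox, 72.8% was AGMO-204, a model of 616 bases with no defined coding sequence. The coding AGMO-201 alone (0.159, 0.0975 and 0.0521 TPM) overlaps CH25H (0.0948, 0.0729 and 0.0349 TPM). In +Dox, FAXDC2 (42.8 ± 3.09 TPM) moved past SC5D (27.0 ± 1.74) to a place below MSMO1 (70.9 ± 4.31). The lowest +Dox value of FAXDC2 was 40.2 TPM and the highest of SC5D 29.0 TPM. AGMO stayed under 1 TPM in both groups.

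FAXDC2 (ENSG00000170271.11, chr5:154818492-154859252, minus strand) has 16 annotated transcripts, and the change was followed through them. FAXDC2-201, the protein-coding transcript of 2947 bases and 9 exons, was at 6.33, 6.75 and 6.1 TPM in −Dox and at 27.7, 29.8 and 26.6 TPM in +Dox. It carried most of the difference. Its estimated counts were 1599, 1660 and 1385 in −Dox and 6279, 7544 and 6945 in +Dox, 81.8% and 88.6% of the counts of the gene. On TPM, its share of the gene was 53.9 ± 2.88% in −Dox and 65.5 ± 0.955% in +Dox, and the shares do not overlap.

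Other transcripts differed in size of change. FAXDC2-213, a short model of 625 bases annotated for nonsense-mediated decay, was at 0.892, 1.79 and 1.89 TPM in −Dox and at 5.61, 7.31 and 6.51 TPM in +Dox, 4.24-fold higher. FAXDC2-202, which keeps the last intron, was 4.12-fold higher and FAXDC2-203, also a retained-intron model, 3.67-fold. The short coding model FAXDC2-208 was 3.44-fold higher and FAXDC2-216, of 584 bases, 2.08-fold. FAXDC2-215 was the exception among the longer models. It is a retained-intron model of 3105 bases that begins 25895 bases downstream of the main start, and it was at 0.489, 0.425 and 0.344 TPM in −Dox and at 0.609, 0.38 and 0.27 TPM in +Dox. These groups overlap, with means of 0.42 TPM in each, while the share of FAXDC2-215 went from 3.53% to 0.981% of the gene. FAXDC2-207 (0.349 and 0.299 TPM) and FAXDC2-209 (0.406 and 0.363 TPM) also had overlapping groups.

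Sorted by where the models begin, the 9 that share the main start summed to 8.26 ± 0.398 TPM in −Dox and 33.1 ± 1.82 TPM in +Dox, 4.01-fold higher. The 6 with an internal start summed to 3.59 ± 0.102 and 9.7 ± 1.33 TPM, 2.71-fold higher, and fell in share from 30.3% to 22.6%. By annotated type, protein-coding models held 64.2% of FAXDC2 TPM in −Dox and 72.9% in +Dox, nonsense-mediated decay models 24.7% and 21.2%, and retained-intron models 11.1% and 5.83%, while the summed level of the retained-intron models was 1.32 ± 0.191 TPM in −Dox and 2.5 ± 0.315 TPM in +Dox. On estimated counts, which are not scaled for length, the internal-start models held 10.8% and 5.07% of the gene, the nonsense-mediated decay models 4.73% and 3.62%, and the retained-intron models 10.7% and 5.82%. Salmon divides reads among models that share exons, and short models such as FAXDC2-213 and FAXDC2-216 rest on few bases of their own, so their separate levels are less certain than the sum.

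**Figure D2:**
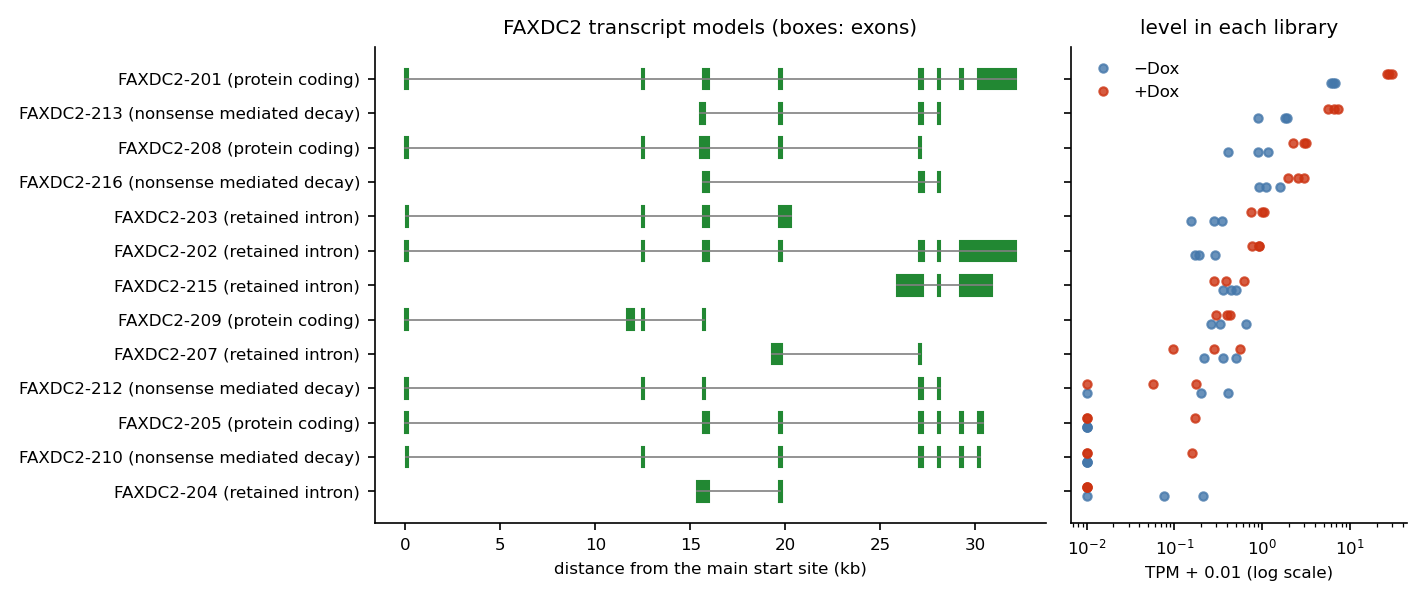
Left, exons (boxes) of the FAXDC2 transcripts with a mean of at least 1 count in a group, against distance from the main start in kb. Right, TPM + 0.01 of each transcript in each library on a log axis, −Dox in blue and +Dox in red. The full-length FAXDC2-201 is separated most clearly, and FAXDC2-215, FAXDC2-209 and FAXDC2-207 overlap between the groups. So do FAXDC2-204, FAXDC2-205, FAXDC2-210 and FAXDC2-212, which have few counts.

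**Figure D3:**
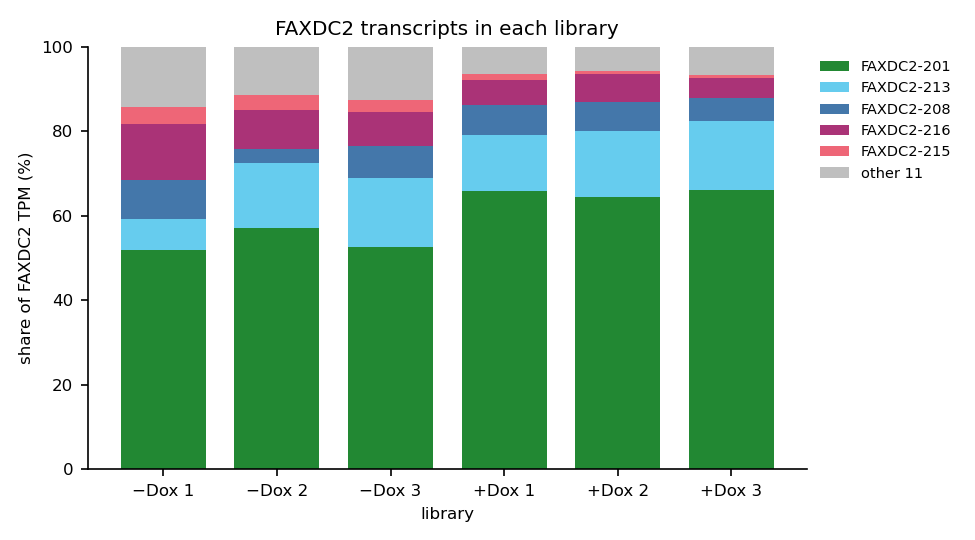
Share of FAXDC2 TPM (%) held by 5 transcripts and by the other 11 together in each library, as stacked bars from 0 to 100. FAXDC2-201 holds 51.9% to 57.2% in −Dox and 64.4% to 66.2% in +Dox.

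The relatives showed smaller shifts among their transcripts. MSMO1-201 held 86.9%, 78.0% and 77.8% of MSMO1 TPM in −Dox and 75.4%, 74.5% and 77.1% in +Dox, which do not overlap, though −Dox replicates 2 and 3 lie close to the +Dox values. SC5D-202 held 57.2% of SC5D TPM in −Dox and 58.3% in +Dox. AGMO-201 held between 7.98% and 38.8% of AGMO TPM, a spread that goes with the few counts of that gene.

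The promoter windows of 3 members are printed to set the gene with the large difference beside an abundant relative and beside the member with counts in −Dox and none in +Dox. They are the 250 bases before the RefSeq start on GRCh38.p14, written 5′ to 3′ on the strand of the gene. Capitals mark matches on either strand to 6 motifs, the E-box CACGTG, the CCAAT box, the GC box GGGCGG, the GATA site AGATAA, the TATA box TATAAA and the sterol element TCACNCCAC. FAXDC2 is at chr5:154850604-154850853 on the minus strand, MSMO1 at chr4:165327419-165327668 on the plus strand and CH25H at chr10:89207318-89207567 on the minus strand.
FAXDC2: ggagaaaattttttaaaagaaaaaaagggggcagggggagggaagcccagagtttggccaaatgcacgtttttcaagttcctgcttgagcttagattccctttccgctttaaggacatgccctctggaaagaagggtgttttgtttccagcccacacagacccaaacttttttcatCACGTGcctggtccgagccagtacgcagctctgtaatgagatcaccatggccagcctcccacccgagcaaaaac
MSMO1: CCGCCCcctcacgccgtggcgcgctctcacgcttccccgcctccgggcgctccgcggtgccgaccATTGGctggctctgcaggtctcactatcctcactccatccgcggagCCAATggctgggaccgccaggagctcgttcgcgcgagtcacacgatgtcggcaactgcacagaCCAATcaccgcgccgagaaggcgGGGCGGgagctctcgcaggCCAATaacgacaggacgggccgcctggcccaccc
CH25H: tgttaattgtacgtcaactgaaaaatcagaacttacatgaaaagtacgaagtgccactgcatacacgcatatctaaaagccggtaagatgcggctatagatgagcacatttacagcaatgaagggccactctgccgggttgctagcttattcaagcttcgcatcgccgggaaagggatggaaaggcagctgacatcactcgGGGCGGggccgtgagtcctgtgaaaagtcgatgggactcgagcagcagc

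The FAXDC2 window (49.2% G and C) held 1 E-box, 74 bases before the start, and no match to the other 5 motifs. The MSMO1 window (70% G and C) held 4 CCAAT boxes, 185, 139, 76 and 34 bases before the start, and 2 GC boxes. The CH25H window (50% G and C) held 1 GC box at 49 bases. Over 35114 promoter windows of the same length, 6.35% held the E-box, 32% the CCAAT box, 42.6% the GC box, 9.17% the GATA site, 10.7% the TATA box and 0.883% the sterol element. In the other members, the SC5D windows (2 starts) held 1 E-box, 1 CCAAT box and 1 GC box each, the FA2H window 4 GC boxes and 1 CCAAT box, and the AGMO window none. These are matches of letters and were not tested as sites.

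PCBP1 binds runs of cytosine in RNA, and the canonical transcripts were therefore scanned for runs of 4 or more C. FAXDC2-201 held 16 such runs, 5.43 per kb, where the median over the 21045 genes tested was 3.22 per kb and 28.4% of genes had as many or more. FA2H held 23 runs (9.56 per kb), SC5D 11 (1.6 per kb), CH25H 5 (2.96 per kb), AGMO 4 (1.62 per kb) and MSMO1 1 (0.449 per kb). FAXDC2 was above the median, and FA2H, at 0 counts here, was the richest of the family. The 30 bases of the FAXDC2-201 coding sequence with the most C, bases 597 to 626 of the transcript with 16 C, are given as an example, with capitals for runs of 3 or more C.
FAXDC2-201: aCCCCtgccgccgtgagctaCCCaccttcc

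The genes beside FAXDC2 on chromosome 5 were also measured. LARP1, an RNA-binding protein of ribosomal protein mRNAs, lies 887 bases away and had 164.7 ± 2.59 CPM without Dox and 151.4 ± 3.81 CPM with it (edgeR log2 ratio −0.12 with an adjusted p of 0.0819, and 0.0273 by DESeq2). On the other side, GEMIN5, a subunit of the SMN complex, fell from 75.8 ± 3.11 to 56.9 ± 3.57 CPM (edgeR log2 ratio −0.41 with an adjusted p of 0.000448). CNOT8, a deadenylase subunit on the opposite strand, went from 85.6 ± 3.88 to 97.3 ± 2.58 CPM (edgeR log2 ratio 0.18 with an adjusted p of 0.025), a call lost in 6 of 12 other settings, among them without −Dox replicate 2 or 3 or +Dox replicate 1 or 3 (adjusted p up to 0.12 by edgeR). HAND1 was barely detected, with a mean of 0 CPM without Dox and of 0.0164 CPM with it. The exons of CNOT8 are reached by FAXDC2-211 alone among the FAXDC2 models, and this transcript held at most 1.02 counts in a library. FAXDC2 and CNOT8 share 163 exon bases, and the part of CNOT8 reads in the FAXDC2 values was not tested. The means of LARP1, CNOT8 and GEMIN5 all differed by less than the 4.14-fold of FAXDC2. Since FAXDC2 was chosen for its change, nothing is read from this comparison.

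The genes most like FAXDC2 over the 6 libraries were found from the root mean square difference of centred log2(CPM + 0.1) values among 14331 genes with a mean of at least 1 CPM. Among the 5 with the smallest difference were PCBP1 itself (0.0959), RHCE (0.132), STPG3 (0.206) and CRYM (0.206). RHCE, a Rh blood group gene, had means of 5.37 ± 0.582 and 21.1 ± 1.37 CPM, and reads shared with its near-identical copy RHD make its level uncertain. CRYM, a thyroid hormone binding protein, was at 2.55 ± 0.43 and 8.45 ± 0.233 CPM. STPG3 was at 0.719 ± 0.0873 and 2.63 ± 0.139 CPM, and 39.3% of its exon bases overlap the antisense gene STPG3-AS1. With 6 libraries in 2 groups, the measure mostly picks genes with a difference of the same size.

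**Figure D4:**
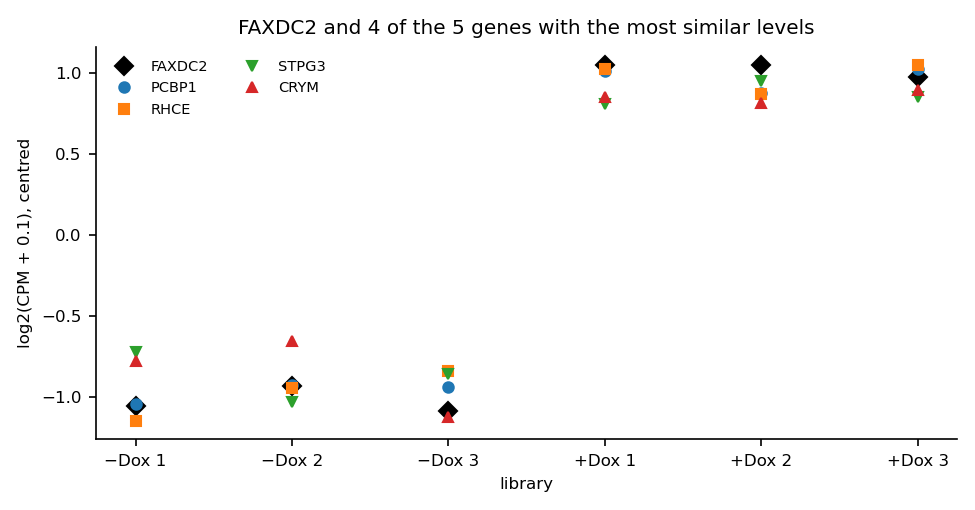
Centred log2(CPM + 0.1) of FAXDC2 (black diamonds) and of 4 of the 5 genes with the smallest root mean square difference from it, in each of the 6 libraries. All genes plotted lie below 0 in −Dox and above 0 in +Dox.

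The pathways that supply or use the products of the family were read from lists of genes, each described by its counts and its median log2 fold change, beside a median of 0.0061 over all genes tested, of which 8.16% rose and 7.68% fell. In sterol synthesis, where MSMO1 and SC5D act, all 20 other genes were tested, 2 rose, 1 fell and the median was −0.0040. TM7SF2, a sterol C14 reductase, was at 13.8, 13.7 and 14.7 CPM in −Dox and at 20.3, 18.5 and 22.6 CPM in +Dox (edgeR log2 ratio 0.54 with an adjusted p of 0.000598) and held in all 12 other settings. ERG28, a scaffold of the C4 demethylation enzymes with which MSMO1 works, rose by 0.20 on the log2 scale (adjusted p = 0.0435 by edgeR), and SQLE, squalene epoxidase, fell by 0.18 on that scale (adjusted p = 0.0331 by edgeR). These last calls were lost in 8 and 6 of 12 other settings, among them leaving out −Dox replicate 2 or 3 or +Dox replicate 1 for both, −Dox replicate 1 or +Dox replicate 3 for ERG28 and +Dox replicate 2 for SQLE (adjusted p up to 0.173 and 0.145 by edgeR). PMVK, phosphomevalonate kinase, had a log2 ratio of 0.31 (adjusted p = 0.0599 by edgeR) and passed only without −Dox replicate 3 (adjusted p = 0.0475 by edgeR) among the 12 other settings.

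In sterol sensing and transport, 17 of 18 genes were tested, 2 rose and 2 fell, with a median of 0.0025, and not every gene called is named here. NPC2, which hands cholesterol out of the lysosome, was at 18.5, 20.7 and 20.8 CPM in −Dox and at 33.1, 32.4 and 36.7 CPM in +Dox (edgeR log2 ratio 0.77 with an adjusted p of 1.53e-05). INSIG1, which holds the SREBP complex in the endoplasmic reticulum, fell by 0.24 on the log2 scale (adjusted p = 0.0128 by edgeR), and lost its call in 3 of 12 other settings, those without +Dox replicate 1, +Dox replicate 2 and −Dox replicate 3 (highest adjusted p 0.06 by edgeR).

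Around CH25H, 4 of 9 oxysterol genes were expressed enough to test, and 2 fell, with a median of −0.20. None rose by edgeR, 0 also at an unadjusted p under 0.05 or by DESeq2. GPR183, a receptor for dihydroxylated oxysterols made downstream of CH25H, was at 0.898, 0.86 and 0.91 CPM in −Dox and at 0.254, 0.308 and 0.283 CPM in +Dox. The groups are well apart, the log2 ratio was −1.65 (SE 0.306, adjusted p = 0.00284 by edgeR), and 153 of the 21045 genes tested (0.727%) passed the DEG limits in this direction. OSBP, an oxysterol binding protein, fell by 0.17 on the log2 scale (adjusted p = 0.0402 by edgeR), lost in 8 of 12 other settings, each of the 6 that leave out a library among them (adjusted p up to 0.149 by edgeR). HSD3B7, of bile acid synthesis, had −0.24 (adjusted p = 0.0567 by edgeR), with 64.8% of its exon bases under an antisense gene. It passed the test in 5 of 12 other settings, by DESeq2, with no filter on low counts, with a stricter one, and without −Dox replicate 1 or +Dox replicate 3 (lowest adjusted p 0.0092 over the 12, by edgeR or DESeq2). CYP46A1 had a log2 ratio of 0.16 (adjusted p = 0.827 by edgeR). CYP27A1, CYP7A1, CYP7B1, CYP39A1 and CYP11A1 were not tested for lack of counts.

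Of the 7 electron donors, the cytochromes b5, their reductases and POR, CYB5R1 rose by 0.19 on the log2 scale (adjusted p = 0.0348 by edgeR) and POR fell by 0.19 (adjusted p = 0.0437 by edgeR), with a median of −0.0089, and both calls were lost in 7 of 12 other settings. Those were, among others, each library left out but +Dox replicate 3 for CYB5R1 and each but −Dox replicate 1 for POR (adjusted p up to 0.135 and 0.176 by edgeR). CYB5R4 had a log2 ratio of −0.11 and CYB5R3 of 0.09, neither past the test. Among the 8 membrane desaturases, which share the histidine-bound iron of the family, none rose by edgeR (0 also at an unadjusted p under 0.05 or by DESeq2) and 2 fell, with a median of −0.11. FADS3, a sphingoid base desaturase, was at 93.8, 102.9 and 107.1 CPM in −Dox and at 65.8, 67.7 and 65.6 CPM in +Dox (edgeR log2 ratio −0.61 with an adjusted p of 1.58e-05). FADS1, the Δ5 desaturase of polyunsaturated fatty acids, was at 503.1, 492.5 and 504.7 CPM in −Dox and at 380.2, 387.0 and 402.5 CPM in +Dox (edgeR log2 ratio −0.36 with an adjusted p of 0.000159). Both held in all 12 other settings, and FADS2 and DEGS2, at log2 ratios of −0.16 and 0.27, did not pass the test.

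FA2H itself was not detected. Of the 15 genes listed around it, most of them sphingolipid enzymes, 14 were tested. By edgeR 3 rose and none fell (1 at an unadjusted p under 0.05, SPTLC1, and 0 by DESeq2), with a median of 0.096. GALC, which removes galactose from galactosylceramide, went from 27.5 to 36.8 CPM (edgeR log2 ratio 0.42 with an adjusted p of 0.000484). PHYH, which hydroxylates phytanoyl-CoA for its breakdown and is not a sphingolipid enzyme, went from 11.1 to 14.8 CPM (edgeR log2 ratio 0.42 with an adjusted p of 0.00246). CERS5, a ceramide synthase, rose by 0.28 on the log2 scale (adjusted p = 0.01 by edgeR), but with a transcript length offset its log2 ratio was 0.10 (adjusted p = 0.52 by edgeR). UGCG had a log2 ratio of 0.12 and did not pass. Of the 11 ether lipid and biopterin genes around AGMO, GCH1, the first enzyme of biopterin synthesis, rose by 0.21 on the log2 scale (adjusted p = 0.0472 by edgeR), a call lost in 8 of 12 other settings, 4 of them without −Dox replicate 2 or 3 or +Dox replicate 1 or 3 (adjusted p up to 0.169 by edgeR). None fell in the edgeR fit used here. FAR2 fell at an unadjusted p under 0.05, by DESeq2, and in 4 other edgeR settings, with no filter on low counts, with a minimum of 10 counts per library, and without −Dox replicate 1 or +Dox replicate 3 (lowest adjusted p 0.0184 over the 12 settings, by edgeR or DESeq2). The median of this list was 0.013, and FAR2, a fatty acyl reductase, had a log2 ratio of −0.25 (adjusted p = 0.061 by edgeR). AGPS and TMEM86B, at −0.12 and −0.30, did not pass the test.

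**Figure D5:**
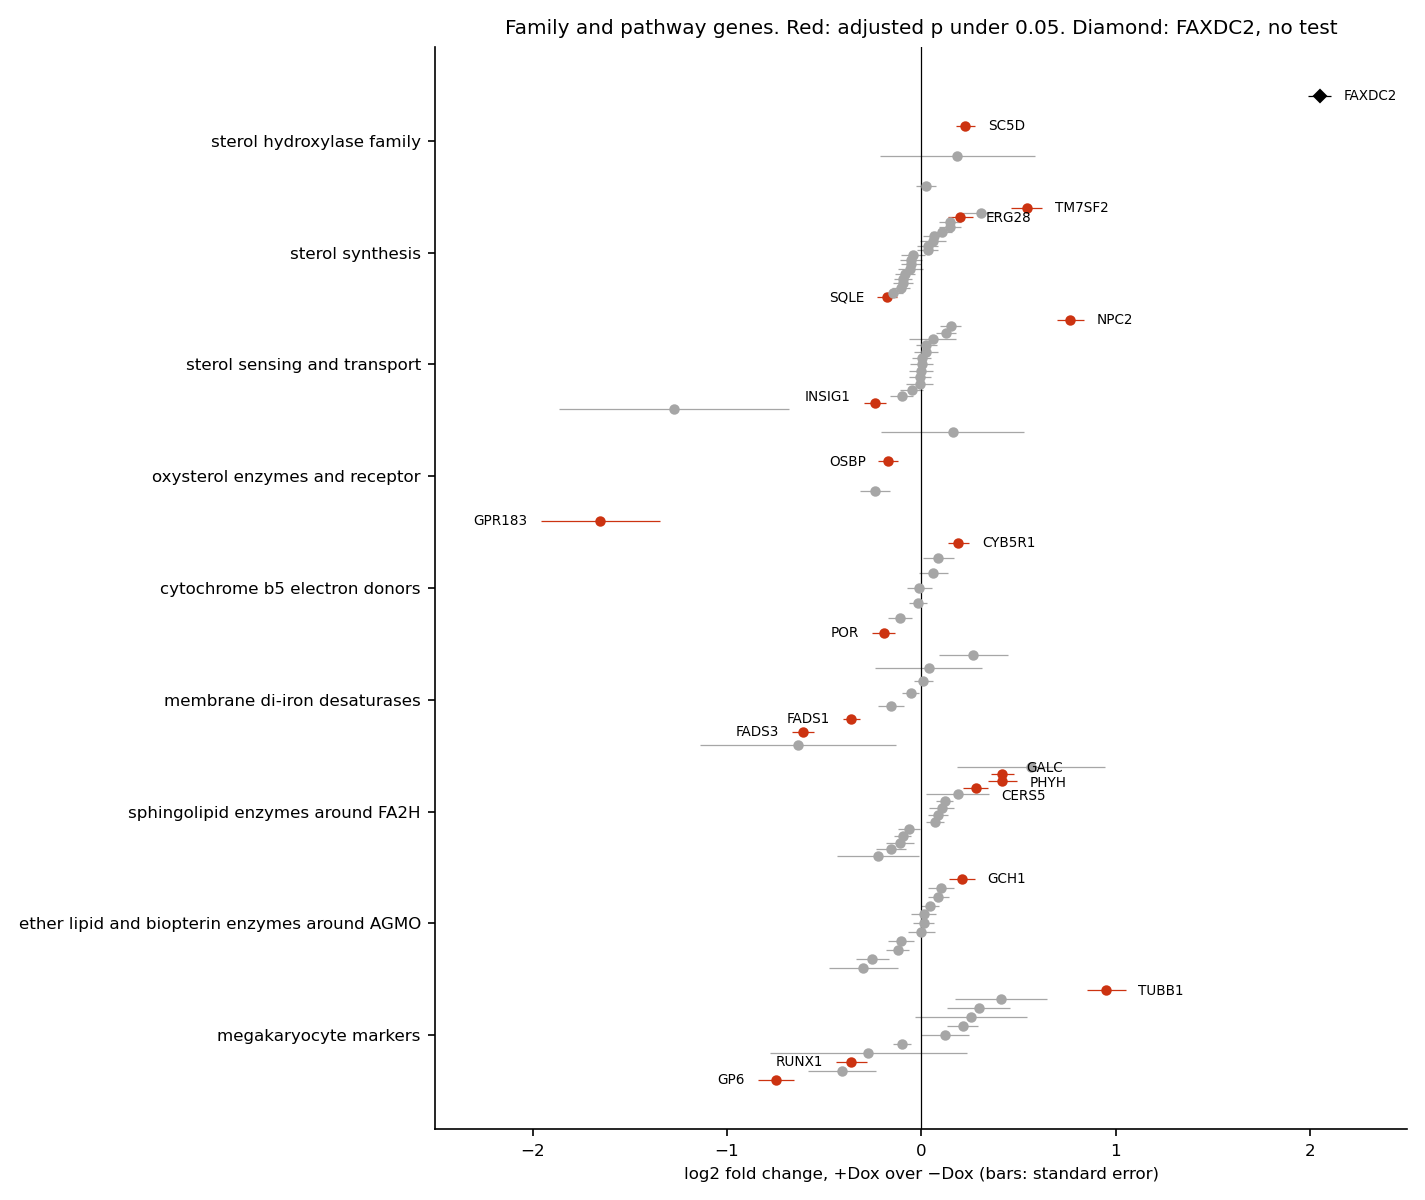
Log2 fold change of the tested genes reported here, +Dox over −Dox, with its standard error, by list. Red points passed an adjusted p of 0.05 by edgeR, grey points did not, and the black diamond is FAXDC2 at 2.05, for which no test is given. FAXDC2 is the only gene plotted above 1, and GPR183 is the called gene farthest below 0.

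Because FAXDC2 has been tied to megakaryocytes, 18 markers of that lineage were read beside it. Of these, 11 were tested, 1 rose and 2 fell, with a median of 0.12. Their summed level was 303.1, 311.4 and 319.8 CPM in −Dox and 297.3, 283.8 and 302.6 CPM in +Dox, most of it NFE2 (193.8 ± 0.656 and 180.9 ± 7.36 CPM), which erythroid cells also express. TUBB1, a platelet tubulin, rose from 6.17 to 11.9 CPM (edgeR log2 ratio 0.95 with an adjusted p of 4.81e-05), with 35.5% of its exon bases shared with ATP5F1E on the other strand. ATP5F1E is far more abundant, with a −Dox mean of 202.3 CPM and a +Dox mean of 210.4. The part of ATP5F1E reads in the TUBB1 rise was not tested. GP6, the platelet collagen receptor, fell from 16.0 to 9.49 CPM (edgeR log2 ratio −0.75 with an adjusted p of 0.000186). RUNX1 fell from 39.9 to 31.1 CPM (edgeR log2 ratio −0.36 with an adjusted p of 0.00969), and without +Dox replicate 3 its adjusted p was 0.0556 by edgeR. PF4, SELP and FLI1 had 0 counts in all 6 libraries, and ITGA2B was at 9.2 ± 0.0579 and 10.7 ± 0.455 CPM (adjusted p = 0.0873 by edgeR). Of the 8 K562 markers, 3 rose, among them KLF1 (edgeR log2 ratio 0.46) and TAL1 (0.44), and 1 fell, TFRC (−0.34). The part of these changes in the FAXDC2 values was not tested.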

How the data were processed

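The 6 libraries of the PCBP1 OE experiment were used, 3 −Dox and 3 +Dox, grouped by their sample labels. The authors quantified paired reads of 150 cycles (Salmon 1.10.2). They deposited, for each of 252045 transcripts and each library, an estimated count, not scaled for depth or length, and a TPM value, scaled for effective length to the same total in each library. The submitters' processing notes name hg38. The Salmon index and strand setting are not given in the sources used here, so genes that overlap on opposite strands and near-identical copies are uncertain. The deposited lengths, of other unit, entered the length offset only.

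Transcripts were matched to GENCODE 44 (251142 with their version, 433 not matched, 0.125% to 0.138% of the counts of a library), and estimated counts were summed per gene and rounded. Genes with a mean count above 10 (21045) were fitted with edgeR 4.0.16 (glmQLFit and glmQLFTest, TMM, two-sided) in R 4.3.3, with Benjamini-Hochberg adjustment over all of them. The alternatives were RLE factors, DESeq2 1.42.0, all genes of any count, at least 10 counts in every library, a transcript length offset, each library left out, the replicate number as a block, and limma 3.58.1 on log2(TPM + 0.1) and log2(TPM + 1). The steps were tested on simulated data. Depth was 70905656 to 84177316 counts per library, and precision is limited for genes with few counts.

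The members and lists were chosen with earlier results of these data known. The genes named are the 6 members, PCBP1, up to 4 genes of each pathway list with the smallest p, the 2 nearest protein-coding genes on each side of FAXDC2, and the 5 genes most like it. Some genes under this rule are not reported here. Values of other genes (most of the markers, FADS2, HBG2 and the transcripts singled out among them) were named after they were seen. Promoter sequences are from RefSeq on GRCh38.p14, and the coding window from GENCODE 44. No member was matched to a protein sequence.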

Additional observations from a re-analysis of the deposited data

How the results depend on the processing

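No member changed direction past a test under any setting run. The log2 fold change of FAXDC2 was 2.05, between 2.02 and 2.09 with each library left out, and lower where length entered, at 1.88 with a transcript length offset, 1.84 on log2(TPM + 0.1) and 1.77 on log2(TPM + 1). SC5D lost its call in those 3 settings, at 0.195, 0.161 and 0.155 (adjusted p = 0.0748 by edgeR, and 0.208 and 0.205 by limma), and kept it with each library left out (0.205 to 0.248). MSMO1 lay between −0.0243 and 0.061 and AGMO between −0.167 and 0.39 with each library left out. The mean −Dox level of CH25H lay between 0.0845 and 0.129 CPM. DEGs numbered 308, 231 to 313 with each library left out, and 515 with all genes of any count. Genes with an adjusted p under 0.05 numbered 3333, 2267 to 3313 with each library left out, and 1882 with the length offset. The share of FAXDC2-201 was 11.6 percentage points higher in +Dox on TPM, 6.81 on estimated counts and 5.9 over protein-coding transcripts only, and the FAXDC2-213 share lay between −0.651 and 3.86 points with each library left out.

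The deviations of same-numbered −Dox and +Dox libraries from their group means had correlations of 0.00752, −0.0605 and −0.00285. Pairs of unlike number lay between −0.0725 and 0.0759. Whether the libraries were paired is not given in the sources used here and cannot be told from these values. With the replicate block, 298 genes were DEGs and 2490 had an adjusted p under 0.05 by edgeR. SC5D stood at 0.228 (adjusted p = 0.0313 by edgeR), with no change of call for MSMO1, SC5D or AGMO. Among the other genes named, SQLE, ERG28, OSBP, CYB5R1, POR, GCH1 and CNOT8 lost their calls with the block. Of the counts of called genes in the pathway lists, those of the desaturases (2 lower) did not vary over 12 settings, while those of sterol synthesis went from 1 to 2 higher and 0 to 2 lower and those of oxysterol genes from 1 to 3 lower. CH25H, AGMO and FA2H had few or no counts at this depth, which limits what can be read from them.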
